A study of Mus musculus with 21 samples.

Results

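The 9 genes described here encode parts of a pair of receptor systems of innate immunity, which were followed in murine pancreatic ductal adenocarcinoma (PDAC) cells: the lipopolysaccharide co-receptor CD14 with Toll-like receptors, and the CSF1 axis. They are Cd14, Tlr2, Tlr3, Tlr4, Ly96, Myd88, Csf1, Il34 and Csf1r, taken by symbol from the 34478 genes of the table, and all 9 passed the filter on low values that left 19300 genes for testing. The set was put together with the values of Resistant and Parental cells in view, where Cd14 was lower and Csf1r higher in Resistant cells. Differences of the 9 genes between those states are therefore given as a description with no p, and counts of calls there are printed only beside the share over all genes.

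RNA of 21 samples from 6 primary cell lines (#3, #4, #6, #7, #9 and #10) was sequenced, each line coming from a pancreatic tumour of a separate mouse. All samples share the loss of the tumour suppressor Trp53 (Trp53loxP/loxP), switched by a Cre recombinase that is expressed from the Ptf1a locus in cells of the pancreatic lineage (Ptf1awt/Cre). Parental cells (6 samples) had never met the MEK inhibitor (MEKi) trametinib, and Resistant cells (6) were grown with it at 100 times the IC50 of their line. P12 cells (6) were Resistant cells kept for 12 passages without the drug, and P5 cells (3, lines #3, #7 and #9) for 5 passages. For 2 of the 3 P5 samples, those of #7 and #9, another field of the labels gives 12 passages. Each state of a line is a single sample, so the 6 lines serve as replicates.

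Values are normalized counts, in which the authors divided the reads of each gene by a size factor of the sample. A sample held an estimated 24.0 to 42.6 M reads, and 3 reads were worth 2.31 to 4.07 normalized counts, which is taken as the floor for counting error only. Differences are on the log2 scale after adding 1. "Called" means an adjusted p below 0.01 and a log2 difference above 1 or below -1 in limma with Benjamini-Hochberg adjustment over all 19300 genes.

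CD14 is a surface protein of myeloid cells that takes bacterial lipopolysaccharide from the binding protein LBP and hands it to the complex of TLR4 and MD-2, the product of Ly96. TLR2 binds bacterial lipoproteins, TLR3 binds double-stranded RNA in endosomes, and MyD88 is the adaptor through which most Toll-like receptors, but not TLR3, signal to NF-kB. CSF1 and IL-34 are secreted ligands of CSF1R, the receptor tyrosine kinase on which monocytes and macrophages depend. Pancreatic carcinoma cells are known to secrete CSF1, whereas CSF1R is known mainly from the myeloid cells around them.

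Of the 9 genes, 4 had a promoter in the RefSeq table used here (Csf1, Myd88, Tlr2 and Tlr3). The 250 bases before the start site are printed for the ligand Csf1 and for the receptors Tlr2 and Tlr3, because these 3 genes differ in how far they moved between the states while their windows were searched for the same NF-kB motif. All 3 lie on the minus strand of GRCm38.p6 and are written 5' to 3' along the gene: Csf1 at chr3:107760470-107760719, Tlr2 at chr3:83841609-83841858 and Tlr3 at chr8:45410381-45410630. Capitals mark matches to the motif.
Csf1: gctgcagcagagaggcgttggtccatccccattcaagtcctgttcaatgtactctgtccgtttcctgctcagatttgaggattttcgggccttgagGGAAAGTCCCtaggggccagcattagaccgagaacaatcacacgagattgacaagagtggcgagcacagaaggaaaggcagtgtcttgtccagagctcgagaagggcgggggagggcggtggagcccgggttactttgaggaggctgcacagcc
Tlr2: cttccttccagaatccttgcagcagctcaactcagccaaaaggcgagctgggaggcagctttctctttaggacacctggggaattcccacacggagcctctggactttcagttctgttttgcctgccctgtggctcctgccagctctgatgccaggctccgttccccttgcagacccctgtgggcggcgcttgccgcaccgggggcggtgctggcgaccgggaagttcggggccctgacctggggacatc
Tlr3: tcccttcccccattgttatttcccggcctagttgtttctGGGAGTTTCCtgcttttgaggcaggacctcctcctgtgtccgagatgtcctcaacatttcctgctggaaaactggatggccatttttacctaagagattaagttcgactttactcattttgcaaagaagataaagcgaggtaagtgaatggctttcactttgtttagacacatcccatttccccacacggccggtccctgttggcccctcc

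The NF-kB motif was searched on both strands as the letters of the Tlr3 match (GGGAGTTTCC) with any base in the fifth place, and it was found in 0.356% of all 32851 promoter windows of that length. Csf1 held it once on the opposite strand (GGAAAGTCCC as printed), 154 to 145 bases before the start, and Tlr3 held it once, 211 to 202 bases before the start. Neither an AP-1 motif (TGANTCA, in 6.75% of all windows) nor an ETS motif (CCGGAAGT, in 2.88%) was found in any of the 4 windows. The window of Tlr2 was richest in G and C of the 4, at 62.8%, beside a median of 52.4% over all windows. A match is a description of the letters and not of binding. Only this string was searched for NF-kB, so a window without capitals, such as that of Tlr2, may hold sites with other letters.

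Levels between genes can be compared only per length, here as normalized counts per kilobase of merged exon. In Parental cells the medians ran from Cd14 (1393 per kb) through Csf1 (431), Myd88 (289), Il34 (220.1), Ly96 (188), Tlr4 (104), Tlr3 (83.8) and Tlr2 (65.2) down to Csf1r (2.14). Neighbours in that order overlapped in their ranges over the 6 lines, except Ly96 (159 to 258 per kb) with Tlr4 (4.84 to 144 per kb), and Tlr2 (31.1 to 126 per kb) with Csf1r (0.462 to 6.88 per kb). In Resistant cells Csf1 stood first (4923 per kb) and its range of 1248 to 7469 per kb lay apart from that of the next gene, Myd88 (179 to 1003 per kb). Ly96 (197 per kb), Tlr2 (186), Tlr4 (119), Tlr3 (99.4), Cd14 (30.4), Il34 (13.1) and Csf1r (9.35) followed with overlapping neighbours. Cd14 thus went from the first to the seventh place and Il34 from the fourth to the eighth. In P12 cells Csf1 (899.8 per kb) and Cd14 (711 per kb) led again, Cd14 lay apart from Myd88 (239.8 per kb), and Csf1r was last (3.45 per kb).

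**Figure D1:**
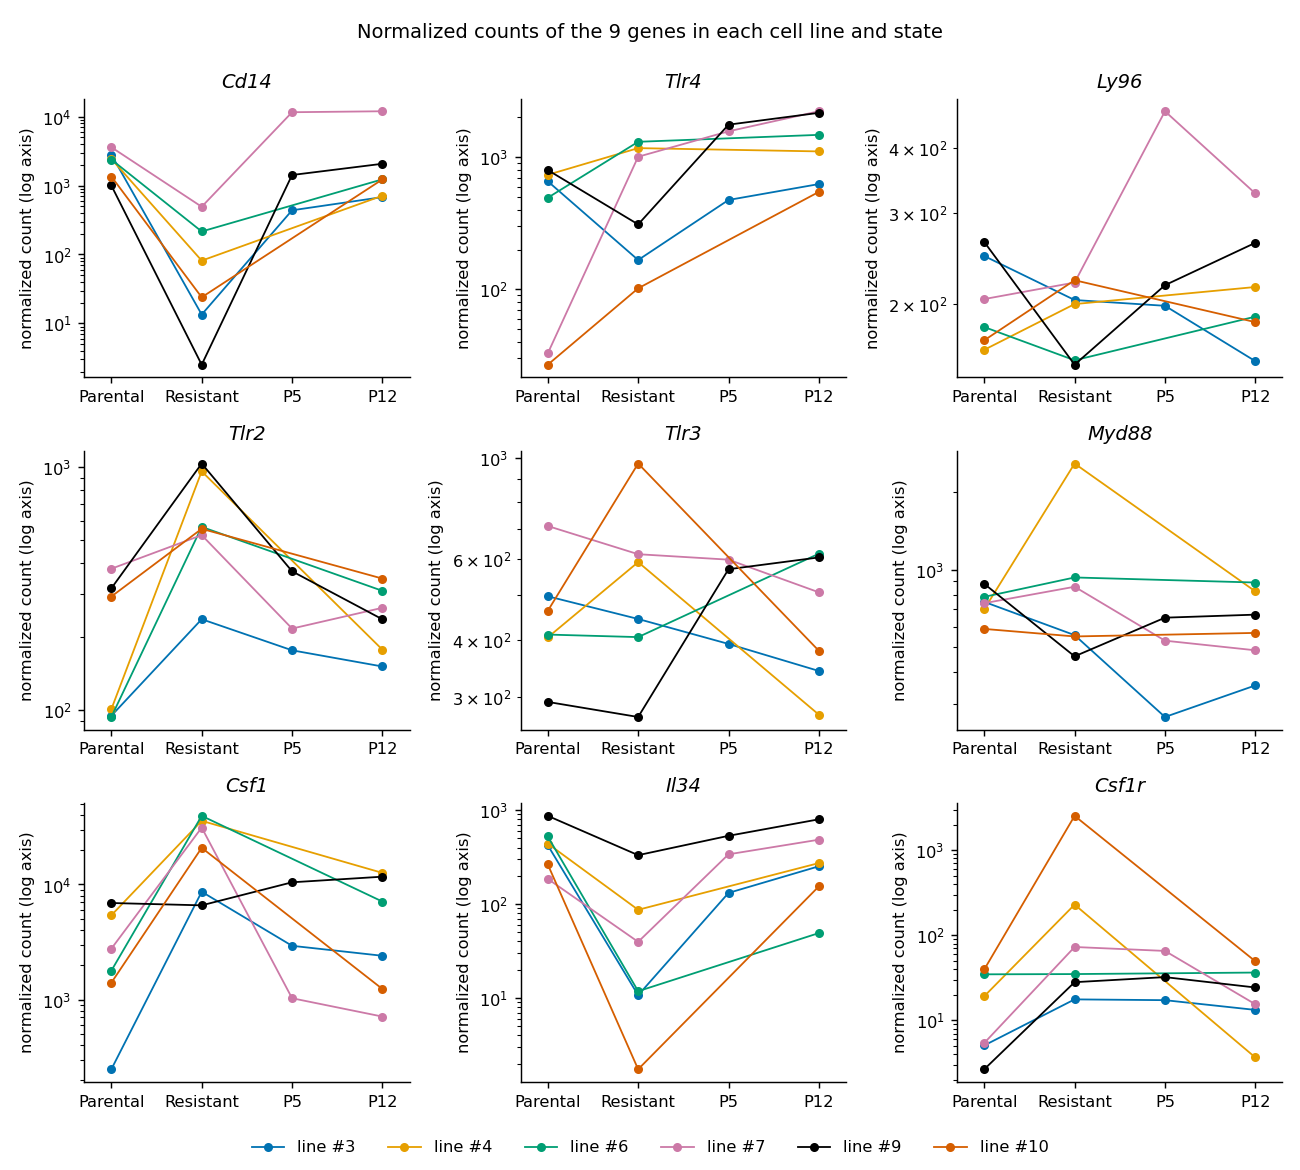
Normalized counts (log axis, own scale per panel) of the 9 genes in Parental, Resistant, P5 and P12 cells, 1 coloured line per cell line, P5 for lines #3, #7 and #9 only. Cd14 and Il34 dip in Resistant cells of every line, Tlr2 peaks there in every line, and the highest Csf1r value by far is that of Resistant #10 (2530.0).

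Cd14 was the most abundant of the 9 genes per length in Parental cells, was lower in Resistant cells of every line, and stood again at 680.5 or more in P12 cells. In Parental cells of lines #3, #4, #6, #7, #9 and #10, in that order, it had normalized counts of 2820.4, 2438, 2388, 3604, 1003 and 1354. The Resistant cells of the same lines had 13.4, 81.4, 216, 493, 2.51 and 23.9, of which the value of #9 corresponds to about 2 reads and lies at the floor. The lowest Parental value (1003, #9) thus stood above the highest Resistant value (493, #7), and the groups did not overlap, which was the case with lower Resistant values for 3.16% of all genes tested. Within the lines the log2 difference ran from -8.16 in #9 to -2.87 in #7, and the fitted difference was -5.46 (SE 1.02, n = 6 lines). Line #3 had a value 210.0 times lower in Resistant than in Parental cells, and line #7 a value 7.32 times lower.

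After 12 passages without trametinib the Cd14 counts were 680.5, 713, 1232, 11991, 2073 and 1230.3. All 6 lines were above their Resistant value, by 2.51 (#6) to 9.21 (#9) on the log2 scale, and the lowest P12 value again stood above the highest Resistant one. Values of P12 without overlap above those of Resistant cells were found for 1.39% of all genes tested. Against their own Parental cells, P12 cells of #7 and #9 had more Cd14 and those of the other lines less, with log2 differences of -2.05 (#3) to 1.73 (#7) and a fitted difference of -0.36 (SE 1.02). P5 cells had 438 in #3, 11611 in #7 and 1424 in #9, so that the high value of #7 was present in both of its drug-free samples.

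The place of the drug-free cells between the 2 end states was measured within each line on the log2 scale, with 0 at the Parental and 1 at the Resistant level. For Cd14 in P12 cells it was 0.0331 ± 0.362 (SD, n = 6), from -0.60 in #7 to 0.36 in #4, a description for which no test is given because the set was chosen on both ends of the scale. P5 cells lay at 0.35 (#3), -0.59 (#7) and -0.06 (#9), each close to the P12 cells of its line. Both fitted comparisons of P12 use samples that also took part in choosing the genes.

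**Figure D2:**
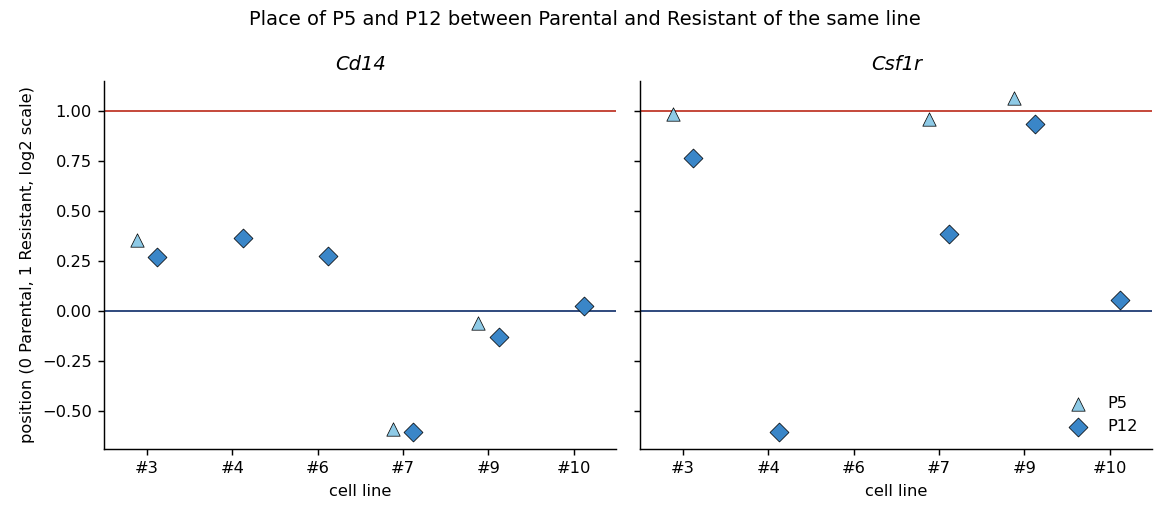
Position of P5 (triangles) and P12 (diamonds) of each line between its Parental (0) and Resistant (1) level, on the log2 scale, for Cd14 and Csf1r; line #6 is left out for Csf1r because its Parental and Resistant values differ by less than 1 on that scale. Cd14 lies between -0.60 and 0.36, whereas the 3 P5 points of Csf1r lie between 0.96 and 1.06.

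Tlr4, the signalling receptor to which CD14 passes its ligand, did not follow Cd14. Parental cells had 658, 736, 494, 32.8, 799.9 and 26.9 in the same order of lines, Resistant cells 167, 1173, 1309, 1009, 310.1 and 102, and P12 cells 627, 1107, 1478, 2229.7, 2169 and 547. The Parental cells of #7 and #10 stood far below the other 4 lines, and the states overlapped. Resistant cells were higher than Parental cells in 4 of 6 lines and lower in #3 and #9, with a fitted log2 difference of 0.92 (SE 0.88), or 0.12 without line #7. P12 cells were above Parental cells in 5 of 6 lines, the exception being #3 at -0.07, and the fitted difference of 2.31 (SE 0.88) did not pass (adjusted p = 0.215, limma). Without line #7, whose log2 difference was 6.05, it was 1.57. Against Resistant cells the P12 difference was 1.39 (SE 0.88, adjusted p = 0.418, limma), higher in 5 of 6 lines. P5 cells had 475 in #3, 1571 in #7 and 1765 in #9.

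Ly96, which encodes MD-2, the lipopolysaccharide-binding partner of TLR4, had the narrowest range of the 9 genes. It had 163 to 263 normalized counts in Parental, 152 to 222 in Resistant and 155 to 327 in P12 cells, with P5 values of 198 (#3), 471 (#7) and 217 (#9). The highest value of all was that of P5 #7, and the next that of P12 #7. The fitted log2 difference was -0.08 (SE 0.24) for Resistant against Parental cells, 0.18 (SE 0.24) for P12 against Resistant (adjusted p = 0.749, limma) and 0.10 (SE 0.24) for P12 against Parental cells (adjusted p = 0.875, limma).

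Tlr2, the receptor of bacterial lipoproteins, ran opposite to Cd14. Parental cells had 94.7, 101, 93.6, 380.4, 316 and 292, and Resistant cells 236, 956, 565, 523, 1029 and 555. Each line was higher in the Resistant state, by 0.46 (#7) to 3.23 (#4) on the log2 scale, with a fitted difference of 1.70 (SE 0.42), although Resistant #3 stayed below Parental #7, #9 and #10. The same direction in all 6 lines, higher in Resistant cells, was found for 8.99% of all genes tested. P12 cells had 151, 177, 309, 263, 236 and 347, lower than the Resistant cells in 6 of 6 lines, a direction shared by 8.2% of genes. The fitted difference of -1.29 (SE 0.42) did not pass (adjusted p = 0.0729, limma), and P12 and Parental cells differed by 0.41 (SE 0.42, adjusted p = 0.661, limma). P5 values were 176 in #3, 216 in #7 and 371 in #9.

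Tlr3, the endosomal receptor of double-stranded RNA, and Myd88, the adaptor, had small fitted differences between the states beside the spread between lines. Tlr3 ranged from 292 to 709.7 in Parental, 271 to 973 in Resistant and 274 to 617 in P12 cells, with fitted log2 differences of 0.19 (SE 0.29) for Resistant against Parental cells, -0.23 (SE 0.29) for P12 against Resistant (adjusted p = 0.735, limma) and -0.04 (SE 0.29) for P12 against Parental cells (adjusted p = 0.961, limma). Its sign in the comparisons of P12 turned when single lines were left out. Resistant #10 held its highest value, in the line with the highest Csf1r.

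Myd88 ranged from 588 to 880.1 in Parental cells and from 354 to 891 in P12 cells. In Resistant cells, 5 lines lay between 459.9 and 932, and line #4 had 2584, so that the log2 difference from Parental cells was 1.88 in #4 and the fitted one 0.15 (SE 0.34). P12 cells differed from Resistant cells by -0.43 (SE 0.34, adjusted p = 0.544, limma) and from Parental cells by -0.29 (SE 0.34, adjusted p = 0.721, limma). P5 values were 267 (#3), 529 (#7) and 650.1 (#9), all below the Parental values of their lines. Reads of Myd88 may be shared with Slc22a14, which overlaps it on the same strand in the annotation. On the opposite strand Acaa1a overlaps Myd88, Gm45542 overlaps Tlr3, Gm15894 and Gm15895 overlap Il34, and Hmgxb3 overlaps Csf1r, and whether the quantification used the strand is not given in the sources used here.

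The ligands of CSF1R differed in opposite directions between Resistant and Parental cells. Csf1 was the more abundant in most samples and was higher in Resistant cells of 5 lines. Its Parental values were 248, 5399.9, 1782, 2768, 6904 and 1402, and its Resistant values 8645, 35714, 39442, 31182, 6589 and 20815. Line #9 was the exception, with a log2 difference of -0.07 between its Resistant and Parental cells, whereas the other lines had 2.73 (#4) to 5.12 (#3). The fitted difference was 3.27 (SE 0.85). The groups overlapped only through line #9, since Resistant #9 stayed below Parental #9 and the next Resistant value (8645, #3) was above all Parental values.

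In P12 cells Csf1 stood at 2403, 12604, 7101, 712, 11687 and 1236. It was below the Resistant value in 5 of 6 lines, with log2 differences of -1.5 (#4) to -5.45 (#7), and above it in #9. The fitted difference of -2.42 (SE 0.85) did not pass (adjusted p = 0.102, limma), and that from Parental cells was 0.85 (SE 0.85, adjusted p = 0.658, limma), higher in 4 of 6 lines. P5 cells had 2933 (#3), 1028 (#7) and 10446 (#9).

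Il34, the alternative ligand, was lower in Resistant cells of every line. Parental cells had 422, 439.7, 524, 185, 869 and 264, and Resistant cells 10.7, 86.9, 11.8, 39.6, 331 and 1.74, the last of which lies under the floor. The log2 difference ran from -6.59 (#10) to -1.39 (#9), with a fitted value of -3.84 (SE 0.88), and 9.49% of all genes tested were lower in Resistant cells of all 6 lines. Resistant #9 alone stood within the Parental range. In P12 cells the counts were 252.5, 273, 49.1, 484, 798 and 154, above the Resistant value in 6 of 6 lines. The fitted difference of 3.12 (SE 0.88) was not called (adjusted p = 0.039, limma), but with the cell line as a block it was (adjusted p = 0.00546, limma). It rests on 6 lines that moved the same way, as 7.77% of all genes tested did, and its adjusted p ranged from 0.00546 to 0.162 over the alternatives. P12 and Parental cells differed by -0.72 (SE 0.88, adjusted p = 0.726, limma), with line #6 lowest at -3.39 within the line. P5 cells had 131 in #3, 339 in #7 and 533 in #9.

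The ratio of the ligands, as log2 of Csf1 over Il34 per kilobase of exon, put both movements on 1 scale. It was 0.89 ± 1.70 (SD, n = 6) in Parental cells, 8.0 ± 2.95 in Resistant cells, 2.02 ± 1.61 (n = 3) in P5 cells and 2.46 ± 2.26 in P12 cells. Parental #3 (-2.19) and P12 #7 (-0.88) were the samples with more Il34 than Csf1. Resistant cells ranged from 2.88 in #9, a ratio of 7.35, to 10.16 in #6, a ratio of 1142, and to 11.46 in #10, where Il34 lay under the floor. Line #9 had 1.56 as Parental, 2.88 as Resistant, 2.86 as P5 and 2.44 as P12 cells, so its balance of ligands varied least.

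**Figure D3:**
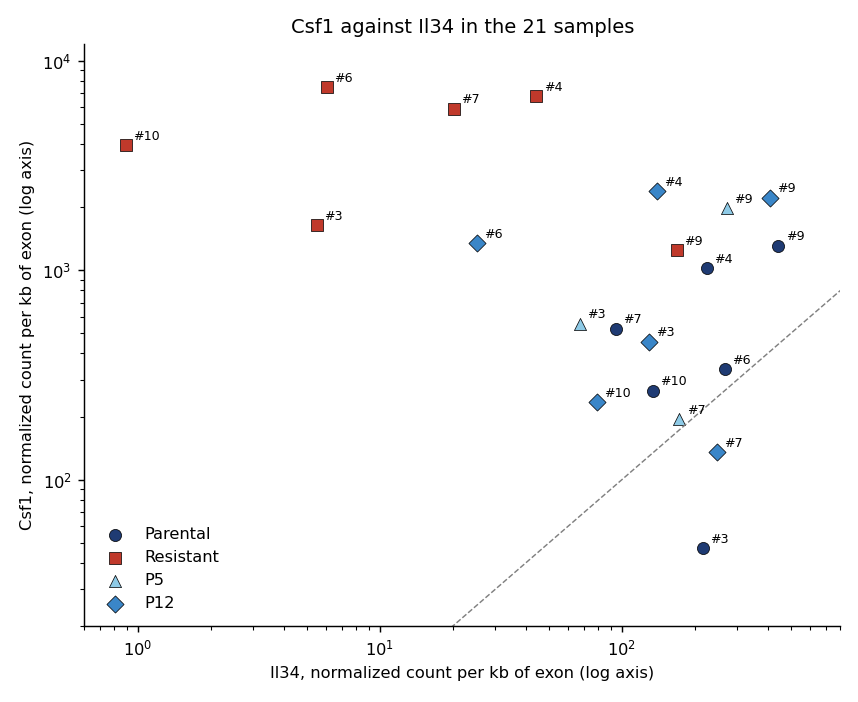
Csf1 against Il34 in the 21 samples, both as normalized counts per kilobase of exon on log axes, with the symbol giving the state, the number the cell line and the dashed line equal levels. Resistant cells (squares) lie to the upper left except #9, and only Parental #3 and P12 #7 lie below the line.

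Csf1r, the receptor of both ligands, was the least abundant of the 9 genes per length in each state's median. Parental cells had 5.09, 19.2, 34.8, 5.43, 2.67 and 39.7 normalized counts, the value of #9 being about 2 reads and under the floor, so that the difference and the positions of #9 rest on a value at the limit of the depth. Resistant cells had 17.7, 229, 35.1, 72.9, 28.1 and 2530.0. Each line was higher in the Resistant state, but #6 by only 0.01 on the log2 scale, the others by 1.62 (#3) to 5.96 (#10), and the groups overlapped. The fitted difference was 2.93 (SE 0.98) and 2.33 without line #10. The median was 12.3 in Parental and 54.0 in Resistant cells, while the mean in Resistant cells, 486 ± 1005 (SD, n = 6), is set by line #10.

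Withdrawal of the drug was followed by different Csf1r levels in the lines. P12 cells had 13.3, 3.67, 36.5, 15.5, 24.4 and 49.5, below the Resistant value in 5 of 6 lines, with the largest log2 differences in #10 (-5.65) and #4 (-5.62) and small ones in #3 (-0.39) and #9 (-0.20). The fitted difference was -2.33 (SE 0.98) from Resistant and 0.61 (SE 0.98) from Parental cells. P5 cells of #3, #7 and #9 had 17.3, 65.5 and 32.3, next to Resistant values of 17.7, 72.9 and 28.1. On the scale from Parental (0) to Resistant (1), P5 cells lay at 0.98, 0.96 and 1.06, and P12 cells at 0.31 ± 0.61 (SD, n = 5, without #6), from -0.60 (#4) to 0.93 (#9). In the same 3 lines the P5 positions of Cd14 were 0.35, -0.59 and -0.06; the difference between the genes was not tested.

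Markers of macrophages, the cells best known to carry CSF1R and CD14, were read beside the 9 genes. In bulk RNA fewer cells of a type and less RNA per cell cannot be told apart. Of 17 macrophage markers, 12 were in the table, and Adgre1, Tyrobp, C1qa, C1qb and C1qc were not. Some markers were at or near 0: Aif1 ranged from 0 to 7.79 normalized counts (0 in 11 of 21 samples) and Fcgr1 from 0 to 6.82 (0 in 9 samples). Ptprc, which encodes the pan-leukocyte protein CD45, was low but above the floor in all samples but 1, from 3.02 to 20.01 with a median of 11.1. Spi1, the master regulator of myeloid cells, ranged from 0 to 8.26 and was at 0 in 6 samples. Other markers reached higher values, up to 277 for Fcgr3 and 119 for Laptm5, both in Parental cells, 76.3 for Coro1a, 52.7 for Lyz2, 52.1 for Fcer1g and 52.0 for Itgam. With the cell line as a block, Fcgr3 was called lower in Resistant than in Parental cells (log2 difference -3.04, adjusted p = 0.00407, limma), beside 10.5% of all genes tested. Coro1a was called higher in P12 than in Resistant cells (1.80, adjusted p = 0.00605, limma), beside 4.52%. Between Resistant and Parental cells Coro1a was not called with the block (-0.83, adjusted p = 0.121, limma). The ranges of Fcer1g (7.63 to 16.0 in Parental, 11.9 to 28.5 in Resistant cells) and Cd68 (118 to 215 and 166 to 348) lay higher in Resistant cells. The markers thus did not share the direction of Cd14. The 12 markers summed to 397 to 3106 in Parental, 249 to 440.2 in Resistant, 314 to 3483 in P5 and 288 to 6299 in P12 cells, with the largest part in the highest samples from Mrc1. Without Mrc1 the sum was 239.6 to 550.3 in Parental (median 319.5), 248 to 434 in Resistant (median 309), 276 to 519 in P5 and 226 to 323 in P12 cells. The lysosomal gene Cd68 had 118 to 404 over all samples. Its median of 187 was the highest of the markers in that sum, the next being 18.7 for Coro1a, so the sum without Mrc1 is mostly Cd68. Resistant #10, with 2530.0 for Csf1r, had 8.26 for Spi1, 12.8 for Ptprc and a sum of 434, the highest Spi1 of the 21 samples and the highest sum of the Resistant state. Mrc1, the mannose receptor, fell in Resistant cells, with 61.8 to 2802 in Parental and at most 18.3 in Resistant cells (fitted log2 difference -7.65, SE 1.53, adjusted p = 0.00253, limma), and had 5978 in P12 #7, the sample with the highest Cd14. The part of other cell types in Csf1r and Cd14 was not tested.

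**Figure D4:**
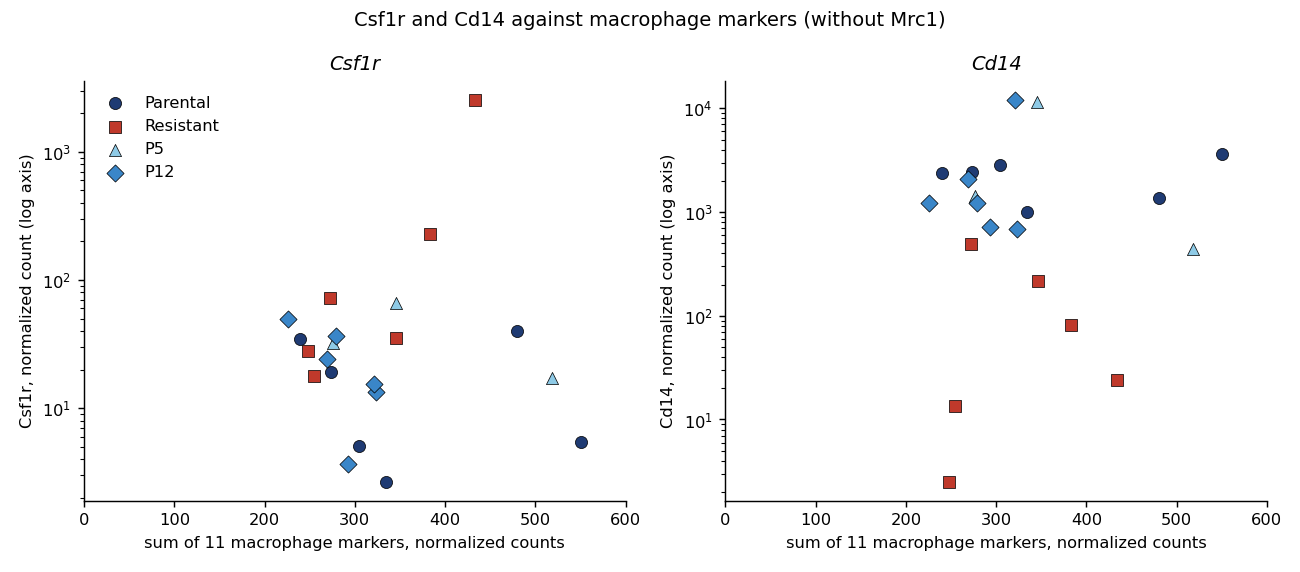
Csf1r (left) and Cd14 (right), normalized counts on a log axis, against the sum of the macrophage markers other than Mrc1, normalized counts on a linear axis, 1 symbol per sample. Marker sums of the 4 states overlap and span 226 to 550.3, and Resistant #10 has both the highest Csf1r (2530.0) and a sum of 434. Cd68 has the highest median of the summed markers (187).

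Epithelial markers varied widely between the lines of each state. Krt8 ranged from 546 to 92917 in Parental and from 544 to 52773 in Resistant cells, Cdh1, the epithelial cadherin, from 816 to 53229 and from 4.01 to 16401, and Epcam was listed at 0 in 20 of 21 samples. With the line as a block Cdh1, Krt8 and Krt18 were called lower in Resistant cells, beside 10.5% of all genes tested called in either direction. Krt19, also tested, was not called and had 3074 to 55658 in Parental and 11.3 to 98106 in Resistant cells. Without the block none of the 4 epithelial markers tested was called. Of 8 fibroblast and mesenchymal markers tested, 2 were called without the block, both higher in Resistant cells, beside 5.3% of all genes tested called in either direction. Cdh2, the mesenchymal cadherin, rose by 1.77 on the log2 scale (SE 0.31, adjusted p = 0.000894, limma), and Dcn, which encodes the matrix proteoglycan decorin, from 0.935 to 19.8 normalized counts in Parental to between 268 and 65969 in Resistant cells (SE of the log2 difference 1.97, adjusted p = 0.00116, limma). With the block the collagen genes Col1a1 (5.19) and Col3a1 (8.01) were called higher as well. Not all markers of that list rose. The ranges of Vim (43833 to 112066 in Parental, 17149 to 91600 in Resistant cells) and Pdgfra (29.1 to 416 and 3.63 to 259) lay lower in Resistant cells. The 8 markers summed to a median of 97617 normalized counts in Parental and 240195 in Resistant cells. Endothelial markers summed to 40.4 to 167 in Parental and 17.2 to 890.2 in Resistant cells, and their 4 tested genes gave no call between these states with or without the block. Between P12 and Resistant cells Pecam1 was called higher with the block (1.39, adjusted p = 0.00464, limma). The part of these cell types in the values of the 9 genes was not tested.

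Of the 9 genes, 3 were called between Resistant and Parental cells (Tlr2 higher, Cd14 and Il34 lower), beside 5.3% of all genes tested, a count that describes the comparison on which the set was chosen. With the cell line as a block it was 4, with Csf1 added, beside 10.5% of genes, and at an adjusted p below 0.05 it was 5, beside 11.3%. Leaving out 1 line changed the count: it was 0 without #3 or #10, 1 without #4, #6 or #7 (Cd14 each time) and 3 without #9 (Csf1, Cd14 and Il34). Between P12 and Resistant cells 1 gene was called (Cd14, beside 2.13% of genes), and with the block 2 (Cd14 and Il34, beside 4.52%). At an adjusted p below 0.05 it was 2, beside 4.91%. That call of Cd14 was also made without #7, and the count was 0 without any one of the other lines. Cd14 was chosen for its low Resistant values, so its call there is a description that the choice partly fixed.

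**Figure D5:**
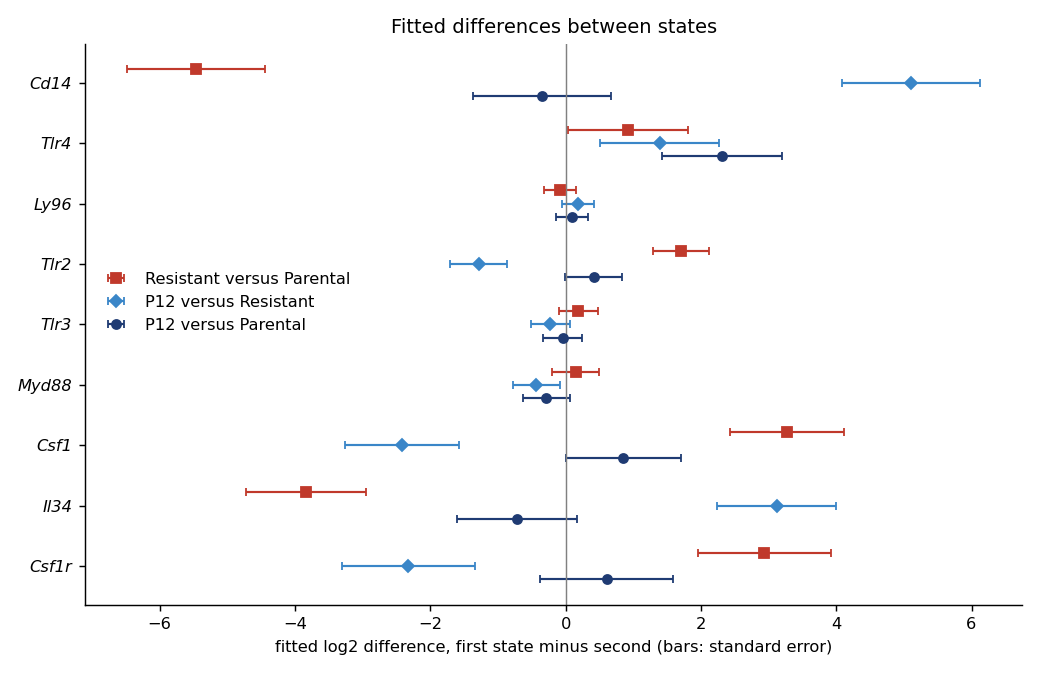
Fitted log2 differences of the 9 genes in 3 comparisons, with bars of 1 standard error. Resistant against Parental (squares) and P12 against Resistant (diamonds) share the Resistant samples and point in opposite directions for every gene but Tlr4, and P12 against Parental (circles) lies within 1 of zero except for Tlr4 (2.31).

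Between P12 and Parental cells none of the 9 genes was called in limma, beside 0.114% of all genes tested. Of the 7 genes other than Cd14 and Csf1r, for which no p is given, 1 had an unadjusted p below 0.05, Tlr4, beside 2953 of all 19300 genes tested. Between P5 and P12 cells no gene of the 19300 was called (0.0%), while 130 had an unadjusted p below 0.05, none of them among the 9, and 1 gene was called in a limma fit of only the states compared. The fitted log2 differences of P5 from P12 cells lay between -0.42 (Myd88) and 0.83 (Csf1r, SE 1.21), each with an adjusted p of 1 in limma.

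How much of the variation of each gene went with the line or the state was described by sums of squares of the log2 values of Parental, Resistant and P12 cells. State held 69.6% for Cd14, 54.1% for Il34, 52.1% for Tlr2 and 48.9% for Csf1, beside a median of 19.8% over all genes tested. These shares include the comparison on which the set was chosen. For Csf1r line held 36.3%, state 35.3% and the rest, which went with neither, 28.4%. For Tlr4 these parts were 35.5%, 27.6% and 37.0%. Over all genes tested the medians of line and rest were 35.8% and 36.6%. For Tlr3, Ly96 and Myd88, state held 4.22%, 6.27% and 9.54%, and the rest 67.3%, 65.1% and 48.3%.

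The genes whose log2 values over the 21 samples were most like those of Cd14 were Ngef (Pearson r = 0.94, Spearman rho = 0.79), Spp1 (0.93, 0.87), Iqgap2 (0.92, 0.89), Itgb4 (0.92, 0.85) and Cflar (0.91, 0.85). Csf1r was less closely matched, by Arf2 (r = 0.81, rho = 0.78), Tctn3 (0.81, 0.71), 3110002H16Rik (0.78, 0.74), Spns1 (0.77, 0.60) and Ttc17 (0.75, 0.58). The 21 samples share 6 lines and their states, so these values describe likeness over dependent samples.

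The wider pathway was read from 6 lists with 73 genes in the table, of which 61 were tested. Between Resistant and Parental cells 2 of them fell and 0 rose, beside 5.3% of all genes tested, and the median log2 difference over the lists was 0.17, beside -0.0049 over all genes. Irak2, a kinase that MyD88 recruits, fell, with 596 to 1389.7 in Parental and 63.1 to 563 in Resistant cells (log2 difference -2.26, SE 0.48, adjusted p = 0.00366, limma). Csf2, the granulocyte-macrophage colony-stimulating factor, fell too, with 10.7 to 53.7 in Parental and at most 2.04 in Resistant cells, which is under the floor (adjusted p = 0.00231, limma). The count of 2 was 0 without line #3, #4 or #6, 1 without #10, 4 without #7 and 6 without #9. With the cell line as a block 9 genes were called, beside 10.5% of all genes tested. Tlr5, Tlr7 and Tnip1 rose, and Csf2, Flt3, Ikbkg, Irak2, Nfkbiz and Ptgs2 fell.

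The other Toll-like receptors were mostly weak. Of 8 in the table, Tlr8 had at most 5.94 and Tlr9 at most 1.07 normalized counts. Tlr1 and Tlr6, which pair with TLR2, ranged from 4.07 to 302 and from 12.1 to 168. Tlr5, the flagellin receptor, had 0 to 48.7 in Parental and 55.9 to 903 in Resistant cells, and its difference of 4.62 (SE 1.26) was called with the block but not without it (adjusted p = 0.00174 and 0.018, limma), although leaving out line #7 also gave the call. Tlr7, a receptor of single-stranded RNA, had 0 to 4.62 in Parental and 1.82 to 97.1 in Resistant cells.

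Among the accessory proteins, Lbp, which loads lipopolysaccharide onto CD14, had 156 to 6932 in Parental, 104 to 4281 in Resistant and 1183 to 15471 in P12 cells. Its difference between P12 and Parental cells, 3.83 (SE 0.95), did not pass (adjusted p = 0.0679, limma). Sdc1 and Ptprz1 encode further binding proteins of IL-34, and Sdc1 ranged from 7535 to 32579.9 in Parental and from 2294 to 23311 in Resistant cells. In the lists of NF-kB subunits and response genes no gene was called without the block. Among the response genes, Nfkbiz and Ptgs2 had log2 differences with the block of -1.81 (SE 0.34, adjusted p = 0.00137, limma) and -3.60 (SE 0.83, adjusted p = 0.00557, limma). Tnip1, an inhibitor of NF-kB signalling on the same list, rose with the block by 1.14 (SE 0.19, adjusted p = 0.000633, limma). The called response genes thus went in both directions.

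Between P12 and Resistant cells 0 of the 61 genes were called in limma. Of the 61, 16 had an unadjusted p below 0.05, 10 of them higher in P12 cells, beside 3821 of all 19300 genes tested in either direction. With the block Csf2 and Irak2 rose (log2 differences 3.81, SE 0.71, adjusted p = 0.0031, and 2.11, SE 0.41, adjusted p = 0.00409, limma), beside 4.52% of all genes tested. Between P12 and Parental cells 0 of the 61 were called with or without the block, beside 0.523% and 0.114% of all genes tested. Without the block 9 of the 61 had an unadjusted p below 0.05, beside 2953 of all 19300 genes tested. Without line #7, Lbp alone was called there.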

How the data were processed

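RNA of 21 samples was sequenced by the authors from stranded mRNA libraries. According to the methods and the submitters' processing notes, the authors quantified transcripts with Salmon 0.12, summed them to genes and deposited DESeq2 1.18 normalized counts, which are a signal per gene and not whole reads. Reads per sample were estimated from the spacing of low values (46.3% to 69.0% fell on steps), so no count model was run. A further allele that all samples share is not reported here. No sample column was left out, and the sequencer of each sample is not given in the sources used here.

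Log2(value + 1) was tested in limma 3.58.1 (R 4.3.3; lmFit, contrasts, eBayes with trend) in 1 fit of 4 states, over genes with at least 10 in at least 3 samples, with Benjamini-Hochberg adjustment. Exon lengths come from GENCODE M21 on GRCm38 and promoters from RefSeq. The line numbers in the labels pair the states, and samples of the same line correlated in their deviations from the state means (mean r 0.24, 0.46 and 0.32 in Resistant-Parental, P12-Resistant and P12-Parental pairs). Pairs from different lines had -0.05, -0.09 and -0.06, but taking deviations from a state mean pushes such values below 0. They are therefore no separate evidence for the pairing. No 2 samples held identical values (0 pairs). The genes and lists were chosen with earlier results of these data known. Named genes are the 9 genes, list genes called in a comparison, the 5 most like Cd14 and Csf1r, and markers. List genes named without a call (Tlr1, Tlr6, Tlr8, Tlr9, Lbp, Sdc1) were chosen after their values were seen. On simulated data for P12 against Parental cells with 19300 genes, 44 of 100 changes of 2 and 77 of 100 of 4 on the log2 scale were recovered. In that simulation 2 unchanged genes were called. Its samples were drawn independently, with no effect of the line, and the changed genes were picked at random. The shares recovered are therefore not those for the 9 genes. Alternatives were pseudocounts of 0.5 and 8, no filter, a mean of at least 100, upper quartile scaling, the cell line as a block, no trend, an adjusted p below 0.05, only the states compared, each line left out, and, chosen after seeing the data, the block with only the states compared.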

Additional observations from a re-analysis of the deposited data

How the results depend on the processing

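None of the 16 alternatives turned the sign of Cd14, Tlr2, Csf1, Il34 or Csf1r between Resistant and Parental or between P12 and Resistant cells. Only the pseudocounts, upper quartile scaling and leaving out a line could have done so. In these comparisons each line has both states, so the filters, the block, the trend, the cut on p and the choice of states leave the fitted difference unchanged. Between Resistant and Parental cells, 3 of the 9 genes were called, 5 at an adjusted p below 0.05, 1 with only the states compared or with the cell line as a replicate block in those states, and 0 to 3 with 1 line left out. Between P12 and Resistant cells 1 was called, 2 with the cell line as a replicate block or at an adjusted p below 0.05, 0 with only the states compared, with or without that block, and 0 to 1 with 1 line left out. Of the pathway lists, 2 genes were called between Resistant and Parental cells, 1 with a mean of at least 100, 9 with the replicate block, 12 at an adjusted p below 0.05, 1 with the block in the states compared and 0 to 6 with 1 line left out. Between P12 and Resistant cells none was called, 1 with a pseudocount of 0.5, a mean of at least 100, upper quartile scaling or the block in the states compared, 2 with the replicate block or an adjusted p below 0.05, and 0 to 1 with 1 line left out. Between P12 and Parental cells it was 0, and 0 to 1 with 1 line left out.

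The sign of P5 against P12 cells turned for Cd14 (0.25 on the log2 scale, -0.41 with the block in the states compared, -0.46 to 1.07 with 1 line left out), Csf1 (-0.19, 0.25 with the replicate block, 0.22 with the block in the states compared, -0.72 to 0.17), Il34 (0.24, -0.39 and -0.68 likewise, -0.21 to 0.82), Tlr2 (0.03, -0.28 to 0.14) and Tlr4 (-0.11, -0.33 to 0.31). It also turned for Tlr3 between P12 and Resistant (-0.23, -0.50 to 0.00049) and P12 and Parental cells (-0.04, 0.0096 with the upper quartile, -0.26 to 0.064), and for Ly96 between P12 and Parental cells (0.10, -0.019 to 0.25). Between Resistant and Parental cells the small differences of Ly96 (-0.08, -0.18 to 0.06) and Myd88 (0.15, -0.20 to 0.36) turned when single lines were left out. The cause was not tested. The block changed no call of the 9 genes other than those of Csf1 and Il34. Values under 2.31 to 4.07 (3 reads) cannot be told from 0 at this depth.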
